A study of Mus musculus with 12 samples.

Results

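The Ifitm genes encode interferon-induced transmembrane proteins, and 5 of the 23937 genes in the expression table of sorted CD8 T cells are described here. The rule was membership of a named list, Ifitm1, Ifitm2, Ifitm3, Ifitm6 and Ifitm10, and all 5 were found and passed the filter on low values (at least 1 CPM in at least 3 libraries). The list was selected from results of these libraries, with the CPM levels that set day 3 apart from naive brain in view, so those levels are given as a description, with no test. Of the 7 Ifitm genes in the table, Ifitm5 and Ifitm7 are not on the list, and they held at most 3.24 and 4.55 CPM in any library. CPM here is read counts divided by a library size that the authors scaled.

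CD8 T cells, the killer lymphocytes of the adaptive immune system, were sorted from mouse brains 30 days after stroke, from brains 3 days after stroke, from naive brains and from naive blood, with 3 libraries in each of these 4 groups. The labels give no strain, age, sex or stroke model, and they do not say whether each library is a separate mouse, so p-values measure the spread between these libraries, which may be technical. Groups follow the tissue in the sample labels (brain or blood), although the protocol text names spleens. Depth ran from 1104490 to 21014171 reads per library.

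IFITM proteins are small membrane proteins that hinder enveloped viruses from fusing with the cell. In mice Ifitm1, Ifitm2 and Ifitm3 are widely expressed and are classic targets of type I and type II interferon and can be induced through interferon-stimulated response elements. Ifitm3 acts mainly in late endosomes and Ifitm1 mainly at the cell surface. Ifitm6 is best known from mouse myeloid cells, and Ifitm10 is a more distant relative whose role is little known.

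In the GENCODE M21 annotation of the GRCm38 (mm10) genome, 4 of the genes form a cluster on chromosome 7. Ifitm2 lies at chr7:140954837-140955987 on the minus strand, Ifitm1 at chr7:140967221-140969825 on the plus strand, Ifitm3 at chr7:141009586-141010770 on the minus strand and Ifitm6 at chr7:141015699-141017924 on the minus strand. Ifitm10 lies outside that cluster, at chr7:142325837-142373753 on the minus strand, next to the lysosomal protease gene Ctsd. All 5 are annotated as protein-coding. Ifitm2 overlaps the predicted locus Gm45717 and Ifitm10 overlaps Gm49369, and neither locus is a row of the table.

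The coding sequences are alike, so reads may be shared, although no read mapping was examined. Over the aligned bases, Ifitm1 was 82.1% identical to Ifitm2 and 82.1% identical to Ifitm3, and Ifitm2 was 80.9% identical to Ifitm3. The other pairs lay between 61.4% and 69.0%. The longest identical run between transcripts was 69 bases for Ifitm2 with Ifitm3, 64 for Ifitm1 with Ifitm3 and 40 for Ifitm1 with Ifitm2, against at most 25 for any pair with Ifitm6 and at most 14 for any pair with Ifitm10. How reads that map to several places were counted is not given in the sources used here, so the split of reads among Ifitm1, Ifitm2 and Ifitm3 is uncertain, and the split between these genes and Ifitm10 less so.

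Promoter windows from 250 bases before to 50 bases after the start (RefSeq, GRCm38.p6) were found for all 5 genes, with 3 windows for Ifitm10. They were searched on both strands for the core of the interferon-stimulated response element (ISRE), spelled GAAA, NN and GAAA, and for TTCNNNGAA, the core of the interferon gamma activated site. The ISRE core stood once in Ifitm2, at bases -46 to -37 from the start, and at 2 places in Ifitm3, at bases 3 to 12 and 20 to 29, inside the first exon. It was not in the windows of Ifitm1, Ifitm6 or Ifitm10. TTCNNNGAA stood in Ifitm3 at bases 14 to 22, where its last 3 bases are also the first 3 of the second ISRE match, and in Ifitm6 at bases -10 to -2. Of 32851 windows of this length, 3.44% held the ISRE core and 8.30% held TTCNNNGAA. Among the 22 genes of the interferon-stimulated list below that have a window, 12 held the ISRE core. Counted per gene, 3.99% of the 27025 genes with a window held the ISRE core and 9.55% held TTCNNNGAA. A match is a description of the letters and not a measured binding site. The matches are shown with up to 10 bases on each side, because Ifitm2, Ifitm3 and Ifitm6 hold a match and the windows of Ifitm1 and Ifitm10 hold none. Capitals mark the motif, and all 5 lines read 5′ to 3′ on the minus strand, the strand of these genes.
Ifitm2, chr7:140955988-140956017: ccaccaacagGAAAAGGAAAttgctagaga
Ifitm3, first match, chr7:141010723-141010752: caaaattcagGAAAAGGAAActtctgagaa
Ifitm3, second match, chr7:141010706-141010735: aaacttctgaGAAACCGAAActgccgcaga
Ifitm3, TTCNNNGAA, chr7:141010713-141010741: aaaaggaaacTTCTGAGAAaccgaaactg
Ifitm6, TTCNNNGAA, chr7:141016884-141016912: ccatatgaacTTCCTTGAAacaagagctt

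The upstream parts of the windows that lie outside every GENCODE exon of their gene are shown for Ifitm1, Ifitm2 and Ifitm3, whose levels go together below, and for Ifitm10, whose levels do not follow them. The Ifitm1 stretch lies in an intron of a longer Ifitm1 transcript, and the Ifitm10 stretch is that of its outermost start and lies within Gm49369. Capitals mark the ISRE core.
Ifitm1, chr7:140967826-140968027, plus strand: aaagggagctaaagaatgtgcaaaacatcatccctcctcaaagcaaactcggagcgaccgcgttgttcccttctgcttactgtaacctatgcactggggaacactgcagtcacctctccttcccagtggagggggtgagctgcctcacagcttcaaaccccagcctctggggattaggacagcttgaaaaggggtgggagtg
Ifitm2, chr7:140955988-140956211, minus strand: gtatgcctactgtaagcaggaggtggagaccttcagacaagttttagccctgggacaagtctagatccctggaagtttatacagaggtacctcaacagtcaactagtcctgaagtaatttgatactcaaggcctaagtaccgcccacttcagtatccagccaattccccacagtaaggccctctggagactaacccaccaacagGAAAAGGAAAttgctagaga
Ifitm3, chr7:141010771-141010994, minus strand: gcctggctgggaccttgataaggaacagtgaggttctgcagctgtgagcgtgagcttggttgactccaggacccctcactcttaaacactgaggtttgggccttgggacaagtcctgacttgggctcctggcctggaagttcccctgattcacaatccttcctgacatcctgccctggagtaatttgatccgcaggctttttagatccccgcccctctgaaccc
Ifitm10, chr7:142373754-142373996, minus strand: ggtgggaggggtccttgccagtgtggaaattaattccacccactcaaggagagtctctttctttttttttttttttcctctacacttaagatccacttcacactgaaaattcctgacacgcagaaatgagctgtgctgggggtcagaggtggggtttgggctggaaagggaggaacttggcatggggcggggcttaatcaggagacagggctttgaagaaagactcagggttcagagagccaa

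Facts of the libraries bear on every value that follows. Stray reads on 1490 sensory receptor genes (olfactory, vomeronasal and taste) split the libraries into 5 of low and 7 of high background. The low ones were day 30 replicate 1, day 3 replicate 1 and the 3 naive brain libraries, and all blood libraries were high. The sorted cell type was checked on Cd8a, the CD8 alpha chain, which held 518 to 2809 CPM at day 30, 52.8 to 510.4 CPM at day 3, 797 to 1571 CPM in naive brain and 172 to 237 CPM in blood. The 10 T cell markers measured took 0.460% to 1.23% of reads in day 30 brain and 0.0675% to 0.225% in day 3 brain. They took 0.621% to 0.824% in naive brain, against 0.313% to 0.468% in blood. At day 3 against naive brain, all 10 of these markers fell (limma, adjusted p below the threshold of 0.05), beside 0.564% of all genes. These calls depend on the model. With background as a term in the fit, 0 of the 22352 genes tested were called lower, while edgeR called 1 lower and DESeq2 175. In bulk RNA, fewer cells of a type and less RNA per cell cannot be told apart.

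Ifitm1 and Ifitm2 were most abundant in all 3 day 3 brain libraries, and Ifitm3 had its highest levels there in replicates 1 and 3. Ifitm1 held 1336, 315 and 222 CPM in day 3 brain replicates 1 to 3, against 38.7, 1.29 and 0.497 CPM in naive brain. At day 30 it held 0, 1.84 and 2.71 CPM, and in blood 0, 6.58 and 0.704 CPM. Every day 3 library lay above all 9 others, and the 3 other groups overlapped one another. The order of group means was day 3 brain (624 ± 618 CPM), naive brain (13.5 ± 21.9), naive blood (2.43 ± 3.61) and day 30 brain (1.52 ± 1.38; SD, n = 3 each). The naive brain mean rests on replicate 1.

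Ifitm2 showed the same separation. It held 2089, 318 and 214 CPM at day 3, against 80.6, 0.108 and 16.4 CPM in naive brain. The day 30 libraries held 29.0, 21.6 and 21.2 CPM, against 44.3, 0.549 and 13.7 CPM in blood. All 3 day 3 libraries again lay above the 9 others, and the day 30 libraries lay within the range of both naive groups. In naive brain replicate 2, with 14884783 reads, a single Ifitm2 read was counted, whereas replicate 1 had 208.

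Ifitm3, the endosomal antiviral factor, was the most abundant of the 5 per exon length in 8 of 12 libraries and was present in every library. It held 3107, 176 and 396 CPM at day 3, against 229, 26.6 and 92.9 CPM in naive brain. It held 78.4, 50.5 and 182 CPM at day 30, against 32.4, 9.33 and 4.58 CPM in blood. Day 3 replicate 2 lay below naive brain replicate 1, so those groups overlapped, and it also lay below day 30 replicate 3. This overlap depends on the scaling of library sizes. The scaled values sum to 526580 in day 3 replicate 2 and to 1.34e+06 in naive brain replicate 1. In unscaled CPM, Ifitm3 held 1924, 334 and 583 at day 3, against at most 207 in any other library (day 30 replicate 3). The 9 brain libraries overlapped the blood ones only through naive brain replicate 2.

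Ifitm6, the myeloid member, was scarce. It held 69.4, 9.10 and 5.36 CPM at day 3, against 0.387, 0 and 3.57 CPM in naive brain. A single Ifitm6 read was counted over the 3 day 30 libraries (0.227, 0 and 0 CPM), and blood held 71.9, 1.10 and 0 CPM. Blood replicate 1 had the highest Ifitm6 level of all 12 libraries, with 133 reads, while the other blood libraries had at most 2. Apart from that library, the day 3 libraries were the 3 highest. At the floor of 3 reads, a count of 0 allows 1.38 and 1.35 CPM in day 30 replicates 2 and 3.

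Ifitm10 did not follow the cluster. It held 430.9, 58.3 and 52.8 CPM at day 30, 73.2, 9.55 and 16.1 CPM at day 3 and 293, 242 and 283 CPM in naive brain, against 6.49, 4.94 and 5.98 CPM in blood. The order of group means was naive brain (273 ± 26.9 CPM), day 30 brain (181 ± 217), day 3 brain (32.9 ± 35.0) and naive blood (5.80 ± 0.792; SD, n = 3 each). All 9 brain libraries lay above all 3 blood libraries, and all 3 day 3 libraries lay below all 3 naive brain ones. Day 30 overlapped both naive brain and day 3, and the day 30 mean rests on replicate 1.

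**Figure D1:**
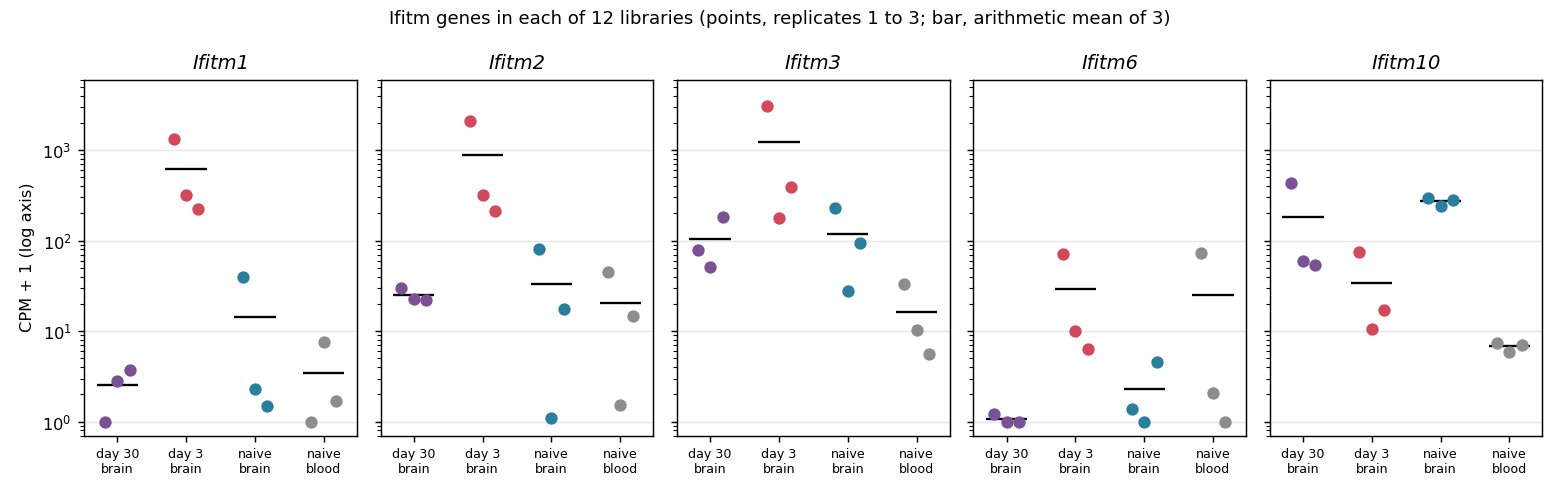
CPM + 1 on a log axis for the 5 Ifitm genes in each of the 12 libraries; points are replicates 1 to 3 and bars are arithmetic means of 3. The 3 day 3 libraries stand above all others for Ifitm1 and Ifitm2, whereas for Ifitm10 they stand below naive brain, and blood is lowest at 4.94 to 6.49 CPM.

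Fitted differences of log2(CPM + 1) put numbers on these patterns; this scale understates the change of scarce genes. For day 3 minus naive brain they were 6.47 ± 1.15 for Ifitm1, 5.49 ± 1.05 for Ifitm2, 2.84 ± 0.86 for Ifitm3, 3.16 ± 1.17 for Ifitm6 and -3.52 ± 0.86 for Ifitm10 (SE, n = 3 each). Of the 5 genes, 3 were higher in every day 3 library and 1 was lower in every one, whereas over the 22352 genes tested 8.76% were higher and 8.50% lower without overlap. Since the choice of genes bears on this comparison, nothing is read from that count. The only low background library at day 3, replicate 1, had 1336 CPM of Ifitm1 against at most 38.7 CPM in the naive brain libraries, all of low background, and 73.2 CPM of Ifitm10 against at least 242 CPM there. The median difference over all genes was 0.50 in this comparison.

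The cluster genes were lower at day 30 than at day 3. The difference for day 30 minus day 3 was -7.70 ± 1.15 for Ifitm1, -4.41 ± 1.05 for Ifitm2, -2.73 ± 0.86 for Ifitm3 and -3.95 ± 1.17 for Ifitm6, and 2.23 ± 0.86 for Ifitm10. Without overlap, 3 of the 5 were lower, beside 5.65% of all genes. Libraries of the same replicate number were also set side by side, although the labels do not say that they pair. In both groups replicate 1 is of low background and replicates 2 and 3 are of high background. In these number-matched pairs all 4 cluster genes were lower at day 30 in 3 of 3 and Ifitm10 was higher in 3 of 3. For Ifitm3, whose groups overlap, the pairs held 78.4 CPM at day 30 and 3107 CPM at day 3 in the first, 50.5 CPM at day 30 and 176 CPM at day 3 in the second, and 182 CPM at day 30 and 396 CPM at day 3 in the third. For Ifitm10 they held 430.9 CPM at day 30 and 73.2 CPM at day 3, then 58.3 CPM at day 30 and 9.55 CPM at day 3, then 52.8 CPM at day 30 and 16.1 CPM at day 3. These are descriptions, with no test. With the replicate number as a block the error of the difference was 0.77 for Ifitm3 and 0.85 for Ifitm10. Between the low background replicates of these groups, Ifitm1 held 0 CPM at day 30 against 1336 CPM at day 3. This comparison and the one above share the day 3 libraries.

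Day 30 and naive brain were not separated for any of the 5. The differences for day 30 minus naive brain were -1.23 ± 1.15 for Ifitm1, 1.09 ± 1.05 for Ifitm2, 0.11 ± 0.86 for Ifitm3, -0.79 ± 1.17 for Ifitm6 and -1.29 ± 0.86 for Ifitm10. All 5 overlapped, beside 7.22% of all genes higher and 6.03% lower without overlap. With standard errors of about 1 on the log2 scale, differences of that size are not detectable with 3 libraries a group.

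Against blood, the brain groups differed in which Ifitm genes stood out. For naive brain minus naive blood, Ifitm10 was higher in every library (5.33 ± 0.86) and the other 4 overlapped, with differences of 1.13 ± 1.15 for Ifitm1, 0.20 ± 1.05 for Ifitm2, 2.76 ± 0.86 for Ifitm3 and -1.53 ± 1.17 for Ifitm6. Over all genes 15.6% were higher and 15.2% lower without overlap in that comparison, in which background also separates the groups. For day 3 minus naive blood, Ifitm1 (7.60 ± 1.15), Ifitm2 (5.69 ± 1.05), Ifitm3 (5.60 ± 0.86) and Ifitm10 (1.81 ± 0.86) were higher without overlap and 0 were lower, beside 7.54% of all genes higher and 4.52% lower. Ifitm6 overlapped through blood replicate 1.

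Day 30 against naive blood sets no day 3 or naive brain library on either side, and it was the 1 comparison in which the 5 genes were tested. Its spread was still estimated from all 12 libraries, those of day 3 and naive brain included, so the test is not independent of them. Ifitm10 was higher at day 30, by 4.04 ± 0.86 (SE, n = 3 each; limma, adjusted p = 0.00542), with every day 30 library at 52.8 CPM or more against at most 6.49 CPM in blood. Ifitm3 was also higher without overlap, by 2.87 ± 0.86, and did not pass the test (limma, adjusted p = 0.106). Ifitm2 differed by 1.29 ± 1.05 (limma, adjusted p = 0.725), Ifitm6 by -2.32 ± 1.17 (adjusted p = 0.486) and Ifitm1 by -0.10 ± 1.15 (adjusted p = 0.987). That is 1 of 5 called higher and 0 lower, where 0.676% of all genes were called higher and 0.0358% lower. Without overlap, 2 were higher and 0 lower, beside 7.35% and 7.38% of all genes.

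The Ifitm10 call rested on day 30 replicate 1. Without that library, which leaves high background libraries on both sides, the difference was 3.06 and the adjusted p 0.197 over all groups and 0.254 among high background libraries alone (limma), while 58.3 and 52.8 CPM still stood against 6.49, 4.94 and 5.98 CPM. Median centring of the libraries gave an adjusted p of 0.157 for Ifitm10 and a fit on the 2 groups alone gave 0.0627, and unscaled CPM gave 0.0265 for Ifitm3 (limma).

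**Figure D2:**
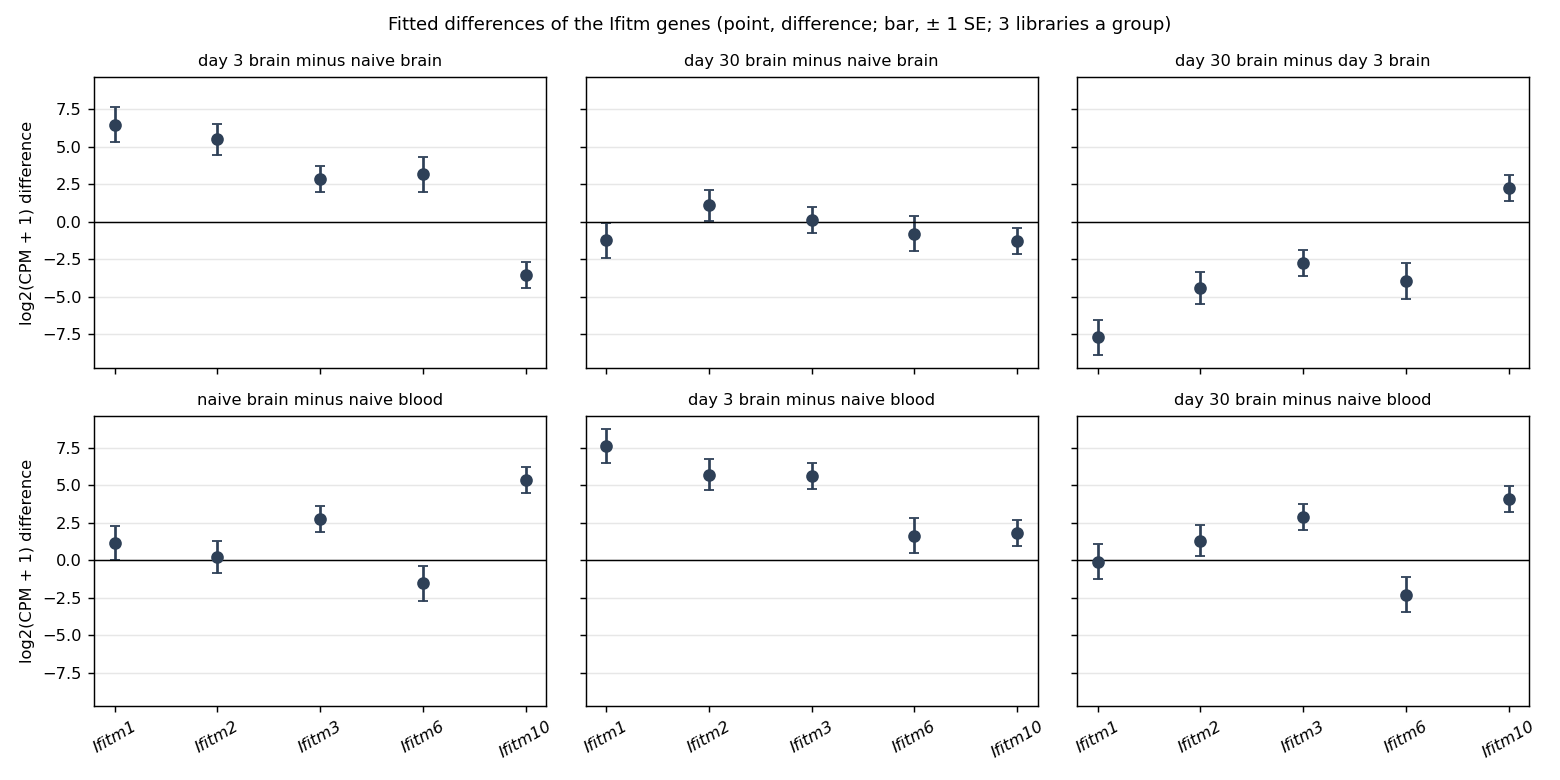
Fitted log2(CPM + 1) differences of the 5 Ifitm genes in 6 comparisons; points are differences, first group minus second, and bars ± 1 SE. Ifitm1 reaches 6.47 and Ifitm10 -3.52 in day 3 minus naive brain, and Ifitm10 is the highest point in both naive brain and day 30 minus naive blood.

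Within each library, the 5 genes were set against one another by their share of the summed Ifitm reads, with exact Clopper-Pearson 95% intervals that cover counting error only. At day 3, Ifitm1, Ifitm2, Ifitm3 and Ifitm6 together took 98.9%, 98.8% and 98.1% of these reads. At day 30 they took 20.0%, 55.9% and 79.6%, in naive brain 54.3%, 10.4% and 28.6%, and in blood 95.8%, 78.0% and 76.1%. The day 3 libraries were alike in this split although their totals ranged from 828 to 6675 summed CPM.

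Ifitm10 took the largest share of reads in 5 of 12 libraries. It took 80.0% (78.4 to 81.6) of the Ifitm reads in day 30 replicate 1 and 44.1% in replicate 2. In naive brain it took 45.7%, 89.6% and 71.4%. Ifitm10 has 4789 exon bases, against 1094 for Ifitm1, 655 for Ifitm2, 678 for Ifitm3 and 905 for Ifitm6, and reads divided by exon length left it ahead in 1 library only, naive brain replicate 2, with 55.5%. On that per-length scale Ifitm3 led in all 3 day 30 libraries, in day 3 replicates 1 and 3, in naive brain replicates 1 and 3 and in blood replicate 2. Ifitm2 led in day 3 replicate 2 and blood replicate 3, and Ifitm6 in blood replicate 1.

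The split inside the cluster differed between libraries of 1 group. In day 3 replicate 1, Ifitm3 took 46.6% (45.9 to 47.2), Ifitm2 31.3% and Ifitm1 20.0% of the Ifitm reads. In day 3 replicate 2, Ifitm2 took 38.5% (36.2 to 40.7), Ifitm1 38.0% and Ifitm3 21.3%. Ifitm1 took 20.0% or more of the Ifitm reads in every day 3 library, against at most 1.39% at day 30 and 6.04% in naive brain, and 0%, 29.3% and 2.82% in blood. The blood libraries held only 287, 41 and 71 Ifitm reads in all, and their intervals are wide: the 29.3% of blood replicate 2 is 12 reads (16.1 to 45.5).

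**Figure D3:**
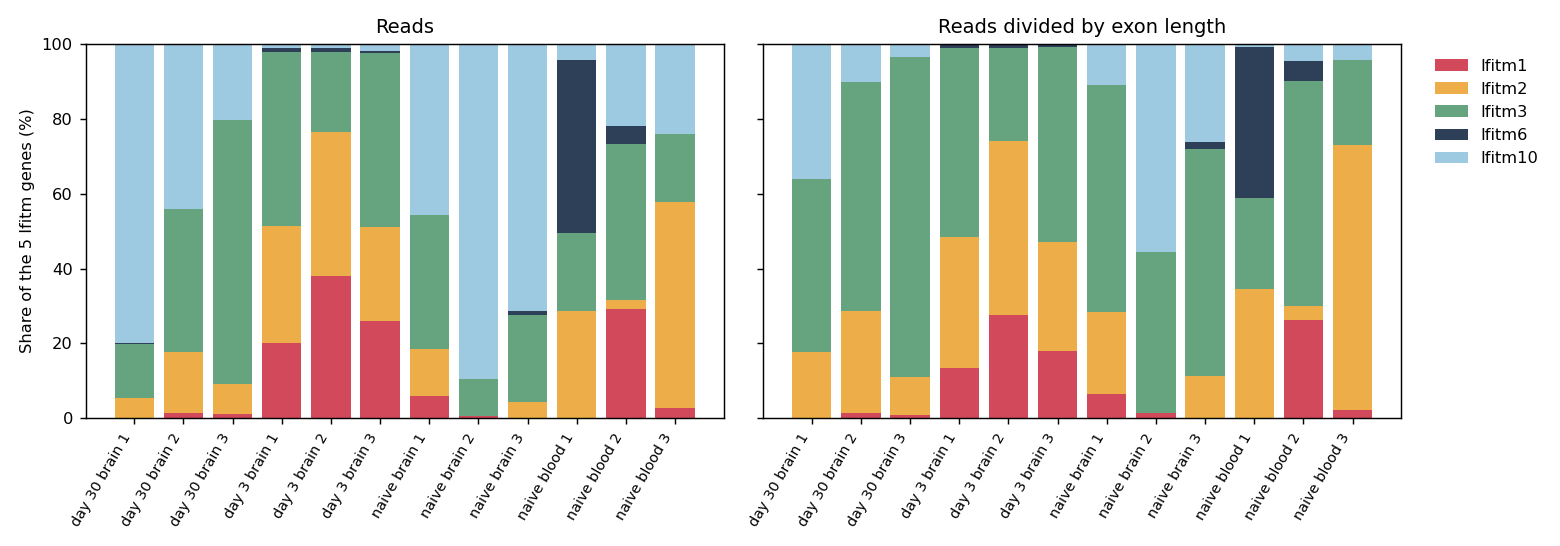
Share of each of the 5 Ifitm genes in their summed reads (left) and in reads divided by exon length (right), as stacked bars for 12 libraries. Ifitm10 takes 1.10% to 1.88% in the day 3 libraries and 45.7% to 89.6% in the naive brain ones, and it shrinks on the right because its exons are the longest.

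Across the 12 libraries, log2(CPM + 1) of Ifitm2 and Ifitm3 went together most closely (Pearson r = 0.821, Spearman rho = 0.783), followed by Ifitm1 with Ifitm2 (r = 0.754) and Ifitm1 with Ifitm3 (r = 0.753). Ifitm6 went with Ifitm2 at r = 0.640 and with the others of the cluster at 0.481 and 0.470. Ifitm10 had r between -0.31 and 0.34 with the other 4. These values describe libraries of 4 groups together, and Ifitm1, Ifitm2 and Ifitm3 may share reads.

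The genes most like each member were those with the highest Pearson r over the 12 libraries among genes with at least 10 CPM in their highest group. For Ifitm1 they were Il1r2, the decoy receptor for interleukin 1 (r = 0.922), Cd24a (0.911), Il1b, the cytokine itself (0.911), Il1rn, its receptor antagonist (0.909), and Cyp7b1 (0.900). Il1b averaged 239 CPM at day 3, against 18.5 CPM in naive brain. For Ifitm2 they were Wfdc17 (0.954), H2-Eb2 (0.912), Il1r2 (0.876), Rnf149 (0.876) and Man2a1 (0.864). For Ifitm3 they were Tbc1d4 (0.941), Emr1, which encodes the macrophage surface protein F4/80 (0.924), Kctd12 (0.902), Smim24 (0.901) and Il1r2 (0.896), so Il1r2 stood in the lists of 3 members. For Ifitm6 the values were lower, with Zxda (0.861), the monocyte chemokine gene Ccl7 (0.836), Ckap4 (0.828), Clec4d (0.827) and Gdpd3 (0.823).

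Ifitm10 had another set, with higher values. It was closest to Socs1, the inhibitor of cytokine signalling (r = 0.975), Psd4 (0.970), Ifng, which encodes interferon gamma (0.968), Stxbp2, a factor in lytic granule release (0.968), and Lcp1 (0.965). Ifng averaged 315 CPM at day 30, 56.6 CPM at day 3, 445 CPM in naive brain and 4.88 CPM in blood, the same order as Ifitm10. None of these 5 genes stood in the list of a cluster member.

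Neighbouring genes on the chromosome were looked at next. Beside the cluster, day 3 minus naive brain was 2.19 ± 1.12 for Nlrp6 (limma, adjusted p = 0.395), 1.20 ± 1.12 for B4galnt4 (0.550) and -1.73 ± 0.87 for Pkp3 (0.388), and none of the 3 passed. Ctsd, the neighbour of Ifitm10, held 3781, 240 and 276 CPM at day 30, 7167, 920 and 847 CPM at day 3 and 2167, 5854 and 12405 CPM in naive brain, against 57.9, 73.5 and 146 CPM in blood. Like Ifitm10 it was higher in every brain library than in blood, and for day 30 minus naive blood it differed by 2.87 ± 0.76 (limma, adjusted p = 0.0506). Unlike Ifitm10, Ctsd at day 3 overlapped naive brain. The predicted locus Gm49369 overlaps both genes, and whether counting used strand is not given.

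Genes of the wider interferon-stimulated list were set beside the cluster. Of 29 tested, among them Ifit, Oas and Mx family members, 0 rose and 0 fell for day 3 minus naive brain (limma), beside 0.152% of all genes called higher and 0.564% lower. Before adjustment, 2 had p under 0.05 with a higher and 5 with a lower level, and edgeR called 0 and DESeq2 1. Their median difference was -0.13, against the 0.50 of all genes. Bst2, the antiviral tetherin, averaged 362 ± 120 CPM at day 3 and 403 ± 154 CPM in naive brain (-0.13 ± 0.80, adjusted p = 0.928). Samhd1, an antiviral nucleotide hydrolase, averaged 142 ± 146 CPM at day 3 and 489 ± 152 CPM in naive brain (-2.22 ± 0.72, adjusted p = 0.154), and Trim30a averaged 369 ± 260 CPM at day 3 and 206 ± 105 CPM in naive brain (0.72 ± 0.71, adjusted p = 0.568). The largest positive difference of any listed gene was 3.66, below those of Ifitm1 and Ifitm2. With library quality weights 7 of the 29 passed, 2 higher and 5 lower, and without day 3 replicate 1 the count was 2.

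Upstream of these genes, 0 of 12 receptor and signalling genes passed at day 3 (limma; at an unadjusted p under 0.05, 0 were higher and 5 lower), with a median of -1.03. Stat2 averaged 92.9 ± 45.8 CPM at day 3 and 130 ± 59.5 CPM in naive brain (-0.53 ± 0.78, limma, adjusted p = 0.693), and Irf9 averaged 129 ± 141 CPM at day 3 and 155 ± 30.7 CPM in naive brain (-0.87 ± 0.78, adjusted p = 0.542). Jak1, the kinase of both interferon receptors, differed by -2.48 ± 0.66 (adjusted p = 0.0509). Of 15 interferon gamma targets 0 passed (limma; unadjusted, 0 higher and 8 lower), with a median of -1.64, and Tap1, the peptide transporter, differed by -2.64 ± 0.75 (adjusted p = 0.0828).

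Of 4 interferon ligands tested, 1 passed at day 3, beside 0.564% of all genes called lower. With background as a term in the fit, 0 of all genes tested were called lower. Ifng fell to 56.6 ± 73.0 CPM at day 3, against 445 ± 72.7 CPM in naive brain (-4.12 ± 0.94; SE, n = 3 each; limma, adjusted p = 0.0155). Ifnb1, the type I ligand beta, had at most 1.82 CPM in any library.

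At day 30 the interferon lists did not pass against naive brain, with 0 of 29 interferon-stimulated genes, 0 of 15 gamma targets and 0 of 12 signalling genes called in either direction (limma; at an unadjusted p under 0.05, 3, 0 and 1 genes, and 0 of the 29 by edgeR or DESeq2), and medians of 0.08, -0.14 and -0.64, against 0.19 over all genes. Of all genes 0.00% were called higher and 0.224% lower in that comparison.

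Against naive blood, 2 of 29 interferon-stimulated genes rose at day 30 and 0 fell, beside 0.676% of all genes called higher and 0.0358% lower (limma). Ifi35 averaged 202 ± 172 CPM at day 30 and 6.83 ± 5.97 CPM in blood (4.53 ± 0.86, limma, adjusted p = 0.00105), and Bst2 averaged 111 ± 79.9 CPM at day 30 and 11.0 ± 14.9 CPM in blood (3.83 ± 0.80, adjusted p = 0.00436). The list's median was 1.47, against -0.05 over all genes. With median centring 0 of the 29 passed, and 0 passed among high background libraries alone, which leave out day 30 replicate 1. Among the gamma targets Cxcl10, a chemokine for T cells, rose (86.5 ± 52.3 CPM at day 30, 2.02 ± 1.70 CPM in blood; 4.78 ± 1.06, adjusted p = 0.00901), 1 of 15. Socs1 rose by 4.03 ± 1.01 (adjusted p = 0.0316), 1 of 12 signalling genes, and Ifng rose by 4.99 ± 0.94 (adjusted p = 0.00105), 1 of 4 ligands.

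Naive brain and naive blood, set apart by Ifitm10, also differed in interferon genes. Of 29 interferon-stimulated genes, 6 were higher in naive brain and 0 lower (limma), beside 6.61% and 0.975% of all genes, with a list median of 1.47 against -0.37. Bst2, tetherin, was higher by 5.84 ± 0.80, Ifi35 by 5.08 ± 0.86 and Irf7, a regulator of type I interferon genes, by 3.36 ± 0.94 (SE, n = 3 each). Among 15 interferon gamma targets, 3 were higher, all of antigen processing: the immunoproteasome genes Psmb9 (514 ± 269 CPM in naive brain, 47.5 ± 28.1 CPM in blood; limma, adjusted p = 0.00169) and Psmb8 (1543 ± 573 CPM in naive brain, 217 ± 172 CPM in blood; adjusted p = 0.0016), and the transporter gene Tap1 (437 ± 182 CPM in naive brain, 61.6 ± 28.3 CPM in blood; adjusted p = 0.0103). Ifng averaged 445 ± 72.7 CPM in naive brain and 4.88 ± 4.09 CPM in blood (6.51 ± 0.94; limma, adjusted p = 7.76e-07). All naive brain libraries are of low and all blood libraries of high background, so tissue and background cannot be told apart.

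**Figure D4:**
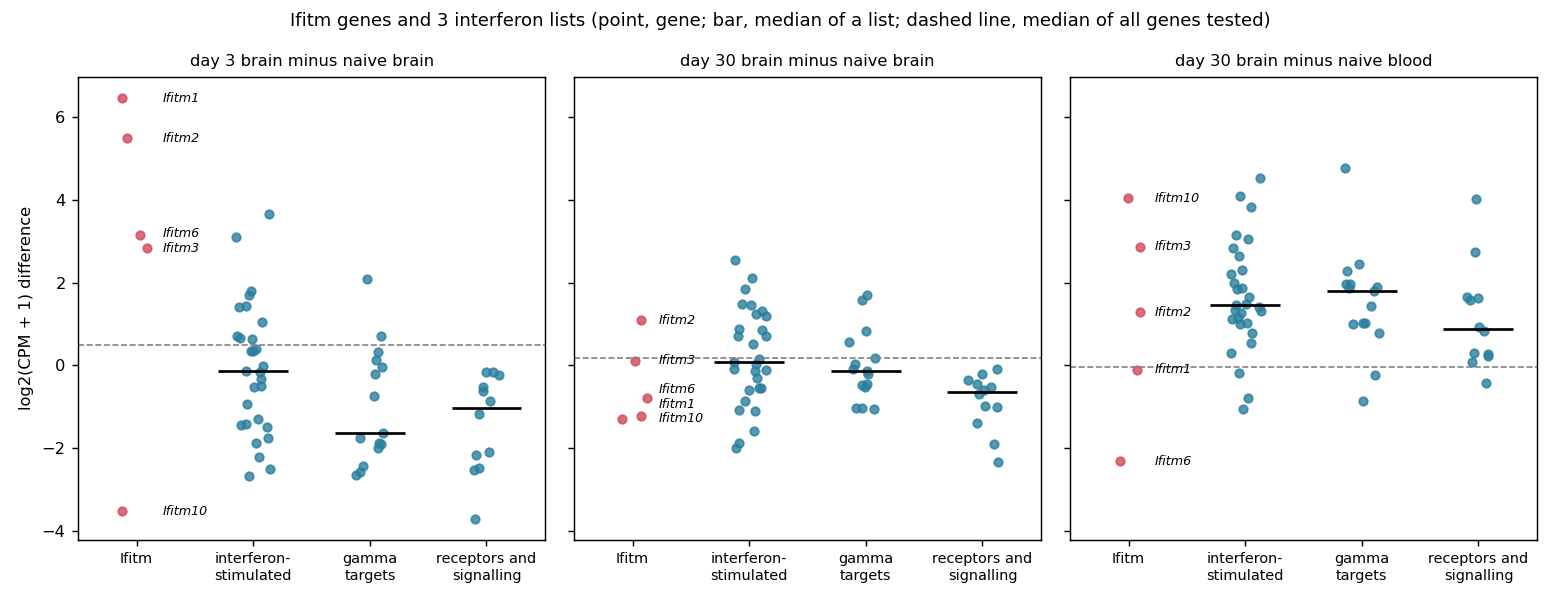
Fitted log2(CPM + 1) differences of the 5 Ifitm genes (named) and of 29 interferon-stimulated genes, 15 interferon gamma targets and 12 receptor and signalling genes in 3 comparisons; points are genes, bars list medians and dashed lines the median of all genes tested. For day 3 minus naive brain, Ifitm1 at 6.47 and Ifitm2 at 5.49 lie above every listed gene, and Ifitm10 at -3.52 lies near the lowest of them.

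Markers of some other cells were higher at day 3 than in naive brain. The 15 monocyte and macrophage markers measured summed to 0.548% to 1.14% in day 3 brain, against 0.291% to 0.394% in naive brain. Of these markers 4 rose (Chil3, Fn1, Thbs1 and Ccr1, limma) and 0 fell, beside 0.152% of all genes called higher and 0.564% lower. With background as a term in the fit, 5 of the 22352 genes tested were called higher. The fitted difference was negative for Fcgr1 (-1.28 ± 0.96), Ly6c2 (-0.68 ± 0.66) and Itgam (-0.13 ± 0.84, SE), and none of these passed. One of the 15, Ly6c2, is also expressed by memory CD8 T cells. The other 14 genes summed to 0.0968% to 0.192% in day 30 brain and 0.396% to 0.859% in day 3 brain, against 0.0984% to 0.164% in naive brain. Their range in blood was 0.0532% to 0.0775%. None of the 15 was at 0 in any day 3 library. Day 3 replicate 1 had both the highest share of these 14 genes (0.859%) and the highest share of cluster Ifitm reads (0.409%), whereas replicate 3 had more of the markers than replicate 2 (0.584% against 0.396%) and fewer cluster reads (0.123% against 0.155%). The 11 neutrophil markers summed to 0.0168% to 0.0203% in day 3 brain and 0.00487% to 0.0181% in naive brain, with up to 2 and up to 7 of them at 0. The 9 erythroid and platelet markers summed to 0.00161% to 0.00369% in day 30 brain and 0.0198% to 0.240% in day 3 brain, against 0.000799% to 0.00767% in naive brain, and to 0.0281% to 0.735% in blood. For day 3 minus naive brain 4 of the 9 rose, the haemoglobin genes Hba-a1, Hba-a2, Hbb-bs and Hbb-bt, and 0 fell (limma). Of all genes 0.152% were called higher. Hba-a1 and Hba-a2 had equal values (each 261 ± 187 CPM at day 3 and 8.81 ± 11.6 CPM in naive brain). They are therefore not 2 separate results, and both are in the sums. How reads that fit several of these near-identical copies were counted is not given. Among day 3 libraries replicate 1 had the lowest share of the 9 markers (0.0198%) and the highest share of cluster Ifitm reads. None of the 9 was at 0 in that library. The 6 natural killer cell markers summed to less at day 3 (0.0215% to 0.0263% in day 3 brain, 0.0273% to 0.0377% in naive brain). Their genes went both ways, and none passed (limma). Means were lower at day 3 for Klrk1 (191 against 371 CPM in naive brain), Eomes (27.4 against 106 CPM) and Klrb1c (8.49 against 56.8 CPM). They were higher for Ncr1 (4.17 against 0.585 CPM), Klra4 (2.82 against 0.601 CPM) and Klra8 (2.77 against 0.325 CPM). The 10 endothelial and mural markers summed to 0.0158% to 0.0495% in day 3 brain and 0.00586% to 0.0170% in naive brain, with overlap. The 6 B cell markers summed to 0.00316% to 0.0132% in day 3 brain and 0.00164% to 0.00486% in naive brain, also with overlap. The part of these cells in the Ifitm levels was not tested.

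Ifitm10 was highest, at 430.9 CPM, in the library richest in T cell markers, day 30 replicate 1 with 1.23% of reads. In blood the T cell markers took 0.313% to 0.468% of reads beside at most 6.49 CPM of Ifitm10, whereas day 3 libraries had 0.0675% to 0.225% beside 9.55 to 73.2 CPM. The 12 microglia markers, low in blood (0.0180% to 0.0508% of reads), ranged over 0.179% to 0.527% in day 30 brain, 0.341% to 1.33% in day 3 brain and 0.965% to 1.95% in naive brain. Ifitm10 in day 30 replicate 1 exceeded that of every naive brain library while its microglia marker share was below theirs. The part of either cell type in the Ifitm10 level was not tested.

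**Figure D5:**
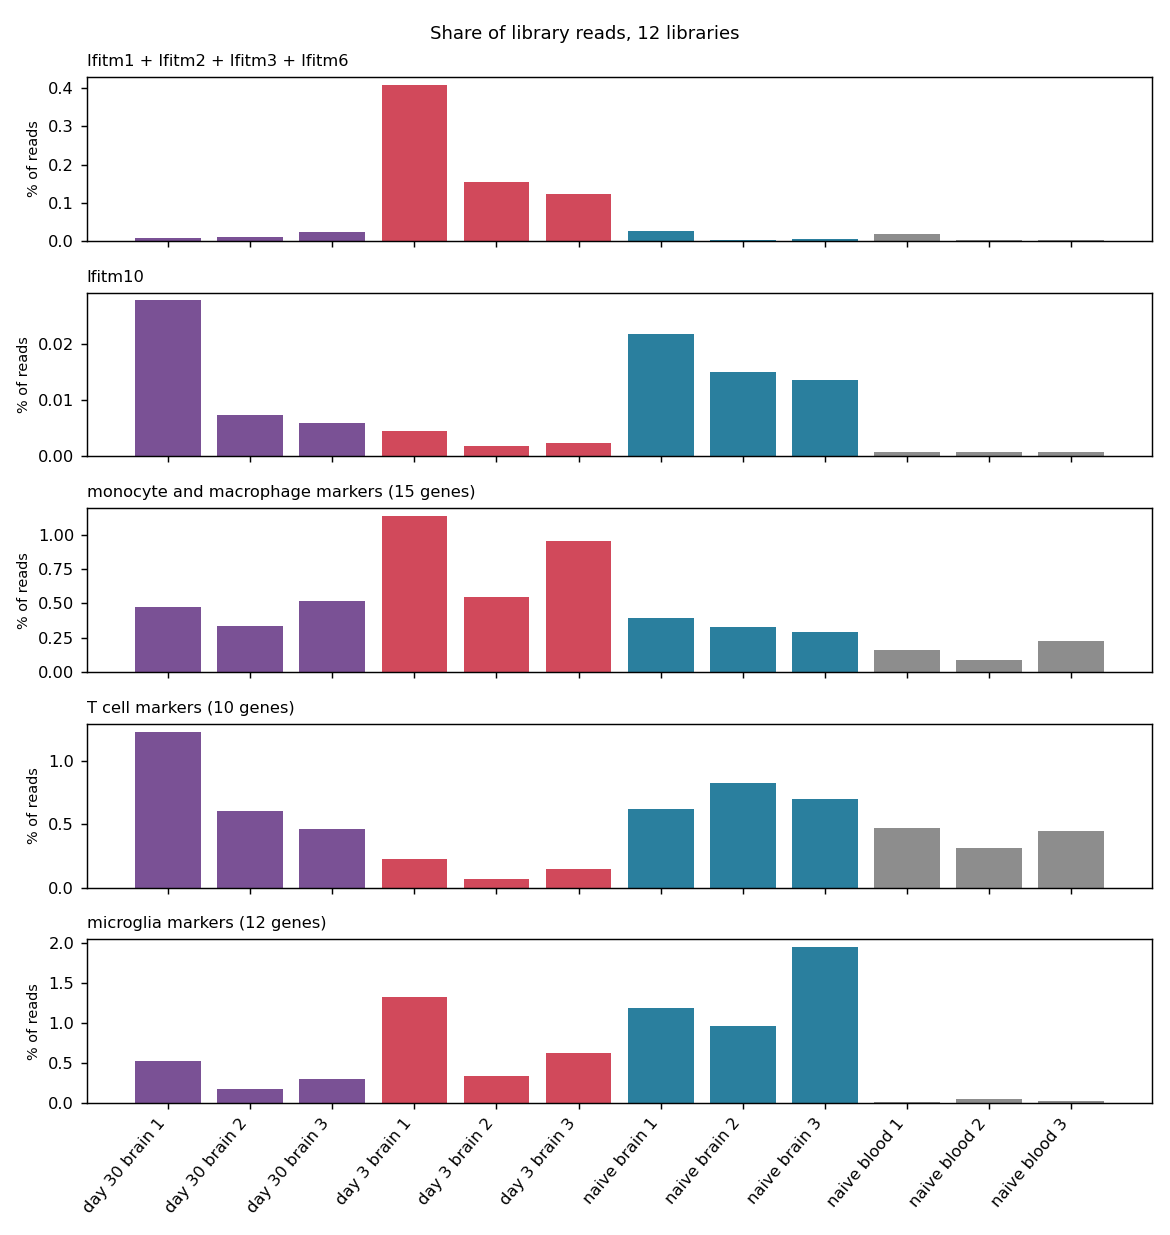
Share of library reads (%, linear axes from 0) taken by the 4 cluster genes, by Ifitm10 and by 3 marker lists in 12 libraries, coloured by group. The cluster genes and the monocyte and macrophage markers are highest at day 3 (0.123% to 0.409% and 0.548% to 1.14%), where the T cell markers are lowest.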

How the data were processed

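CD8 T cells were obtained by fluorescence-activated sorting, and libraries were made with Clontech's SMART-Seq v4 chemistry, per the labels' protocols. It uses no molecular identifiers. The submitters' processing notes list FastQC 0.11.2, STAR 2.5.3a, featureCounts, Subread, edgeR and the mm10 build. The annotation, the strand setting and the rule for multi-mapping reads are not given.

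The deposited signal, in 1 table of 23937 genes, is CPM relative to a library size that the authors scaled. Whole reads were recovered from its steps, with 100% of values whole to within 1e-06 reads. The design assumed plain CPM; the same test was applied to the scaled values.

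Tests used limma 3.58.1 (R 4.3.3; empirical Bayes with a trend) on log2(CPM + 1) of all 12 libraries. P-values of the 22352 genes that reached 1 CPM in 3 or more libraries were adjusted together by Benjamini and Hochberg within each comparison, two-sided, with a threshold of 0.05. The script was tested on simulated data. The members and the gene lists were chosen with earlier results of these data known, so the Ifitm genes were tested in day 30 against naive blood only. Named genes were every member, up to 4 genes per interferon list by the largest difference among those that passed (by mean CPM where none did), Stat2 and Irf9, the 5 genes most alike per member and chromosome neighbours. One gene that this rule names is not reported here. Gene Ifnb1 was named after its values were seen. Libraries were split by receptor background after the data were seen. Planned protein identities were replaced by identities of GENCODE M21 coding sequences, and upstream sequence lying in GENCODE exons was not printed.

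Replicate numbers come from the labels. Between day 30 and day 3, libraries of the same number deviated from their group means together (correlations of 0.530, 0.284 and 0.165, each over 0.1). So did day 30 replicate 2 with day 3 replicate 3 (0.214) and day 30 replicate 3 with day 3 replicate 2 (0.180). Background class runs the same way, so a pairing by number cannot be told apart from background. That comparison was described without a test. In the comparison of day 30 with naive blood they correlated at 0.0495, 0.0608 and -0.0142, and the numbers share only a label. Alternatives were pseudocounts of 0.1 and 5, other filters, unscaled CPM, median centring, quantile normalization, quality weights, a fit on the 2 groups alone, edgeR 4.0.16 and DESeq2 1.42.0 on recovered reads, each library left out, a replicate block, background as a term and background classes alone.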

Additional observations from a re-analysis of the deposited data

How the results depend on the processing

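Over 780 alternatives for single Ifitm genes, 735 kept their side of the threshold in the tested comparison or moved by less than the replicate spread in the others. In 28 the sign turned, each in a value without a call, and the 735 include some of these. The count of Ifitm genes called for day 30 minus naive blood, 1 as reported, was 2 with unscaled CPM, 0 with median centring, 0 in a fit on the 2 groups alone, 0 among high background libraries only, and 0 to 1 when single libraries were left out (0 without day 30 replicate 1). Over all its alternatives, the adjusted p of Ifitm10 ran from 3.31e-05 to 0.254 (limma, edgeR or DESeq2) and that of Ifitm3 from 0.0265 to 0.406. Scaling moved the median of all genes, in day 3 minus naive brain to 1.13 (unscaled CPM), -0.56 (median centring) and 0.02 (quantile normalization), and in day 30 minus naive blood, where it was -0.05, to -0.44, 0.37 and -0.06. The direction of Ifitm1, Ifitm2, Ifitm3, Ifitm6 and Ifitm10 in day 3 minus naive brain was kept under every alternative run, with -1.72 the value nearest to 0 for Ifitm10 (background as a term).

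The count of Ifitm genes without overlap ran from 3 to 5 for day 3 minus naive brain (4 as reported) and from 4 to 5 for day 3 minus naive blood (4 as reported). For day 30 minus naive brain (0 as reported) it was 1 with quantile normalization, 2 among low background libraries only, where day 30 has 1 library, and 0 to 1 with single libraries left out. For day 30 minus day 3 (3 as reported) it was 5 with unscaled CPM, 5 with quantile normalization, 5 among low background libraries only, with 1 library a side, and 3 to 4 with single libraries left out. For naive brain minus naive blood (1 as reported) it was 2 with median centring and 1 to 2 with single libraries left out. The number of libraries in which Ifitm10 leads, 5 by reads, was 3 per coding length and 1 per exon length, a choice added after the data were seen, and 4 to 5 with single libraries left out. The count of genes holding each motif, 2, was 1 within the 250 bases before the start alone.

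The count of interferon-stimulated genes called for day 3 minus naive brain (0 as reported) was 1 with unscaled CPM, 7 with quality weights, 1 with DESeq2 and 0 to 2 with single libraries left out. For day 30 minus naive brain (0 as reported) it was 0 to 1 with single libraries left out. For day 30 minus naive blood (2 as reported) it was 4 with unscaled CPM, 0 with median centring, 1 in a fit on the 2 groups alone, 0 among high background libraries only, 4 with DESeq2 and 1 to 3 with single libraries left out. The cause of these shifts was not tested.

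With the replicate number as a block, 2 Ifitm genes passed for day 30 minus naive blood (Ifitm3 and Ifitm10), and the interferon-stimulated genes called were 6 in that comparison and 1 in day 3 minus naive brain; the replicate block left the count for day 30 minus naive brain at 0. In these comparisons the libraries share only a number. At 3 reads, the floor of a count of 0, values below 0.298 to 1.65 CPM cannot be told from 0, which bears on Ifitm6 and on Ifitm1 outside day 3.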
